A study of Mus musculus with 8 samples.

Results

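The Runx family has 3 members in the mouse, Runx1, Runx2 and Runx3, and all peaks carrying one of these gene names were taken from 4 lists of m6A peaks of mouse gastrocnemius muscle. The genes were chosen by name, with the denervated-only calls of Runx1 known, so the presence of its peaks in denervated muscle is given as a description and without a test. Of 38927 peaks in the 4 lists, 6 carried a Runx name, and all 6 were peaks of Runx1. Thus 1 of the 3 members was among the 5981 genes with a peak.

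The tissue was gastrocnemius, a muscle of the calf, and the animals were male C57BL/6 mice aged 10 weeks. In MeRIP-seq, fragments that carry N6-methyladenosine are captured with an antibody (IP) and sequenced beside uncaptured input RNA. One group was muscle taken 14 days after denervation (2 IP libraries), and the other was untreated, innervated muscle of the opposite leg (2 IP libraries), which is a control within animals that had undergone denervation. The labels do not say how the nerve was interrupted, whether muscles were pooled, or whether replicate numbers mark separate animals, so spreads between replicates may be technical.

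RUNX proteins are transcription factors that bind DNA through the Runt domain, together with the non-DNA-binding subunit CBFβ. Runx1 is known for its role in blood formation, Runx2 for bone and Runx3 for sensory neurons and lymphocytes. In skeletal muscle, innervation keeps Runx1 low, and loss of the nerve is known to induce it. Each Runx gene can be transcribed from a distal and a proximal start, which give proteins with different first residues. N6-methyladenosine on messenger RNA is usually found close to stop codons and in long exons, at a consensus with the core GGAC.

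The sequences at the starts are shown first because a block of the first of the 3 Runx1 regions begins at the proximal start. The second region begins 491 bases after that start. RefSeq windows of GRCm38.p6, the assembly of mm10, running from 250 bases before to 50 bases after an annotated start, were present for all 3 members. Those of Runx1 gave a distal start at base 92826074 and a proximal start at base 92697329 of chromosome 16, minus strand, 128745 bases apart. Below, the 250 bases before each Runx1 start are given 5′ to 3′ on the minus strand, with CpG dinucleotides in capitals. The distal one is chr16:92826075-92826324 and the proximal one is chr16:92697330-92697579.
Runx1, before the distal start: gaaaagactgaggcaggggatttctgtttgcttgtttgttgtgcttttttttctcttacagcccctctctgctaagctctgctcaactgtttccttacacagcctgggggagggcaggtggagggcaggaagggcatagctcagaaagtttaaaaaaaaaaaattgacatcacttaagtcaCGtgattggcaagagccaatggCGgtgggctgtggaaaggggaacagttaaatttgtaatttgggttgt
Runx1, before the proximal start: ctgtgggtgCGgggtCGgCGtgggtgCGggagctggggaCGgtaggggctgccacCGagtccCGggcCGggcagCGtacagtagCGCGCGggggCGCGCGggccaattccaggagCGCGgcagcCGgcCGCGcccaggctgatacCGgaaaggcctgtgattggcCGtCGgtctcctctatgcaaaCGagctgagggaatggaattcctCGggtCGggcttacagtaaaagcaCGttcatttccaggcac
The proximal sequence held 27 CpG dinucleotides and 67.6% G and C, and the distal one held 2 and 45.6%. Over all 32851 windows the medians were 6 CpG dinucleotides and 52.4%. The starts of Runx3 differed in the same direction, with 38 CpG dinucleotides and 78.8% before its proximal start and 8 and 65.2% before its distal start, so the contrast is not particular to Runx1. The larger block of the Runx1 region described first below begins directly downstream of the CpG-rich sequence.

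The 3 paralogs shared a stretch of 18 bases near their distal starts, the longest stretch that their distal windows have in common. For Runx2 the table gave a single start, which was taken as the distal one. The stretch is printed in capitals within 30 bases, because it is a feature of the whole family and not of Runx1 alone. The 30 bases are chr16:92826025-92826054 for Runx1 (minus strand), chr17:44814582-44814611 for Runx2 (minus strand) and chr4:135120504-135120533 for Runx3 (plus strand).
Runx1 distal start: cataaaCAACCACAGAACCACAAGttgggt
Runx2 distal start: acaaaCAACCACAGAACCACAAGtgcggtg
Runx3 distal start: tccctCAACCACAGAACCACAAGgccaggc
The shared bases began 26 bases downstream of the start in Runx1, 21 bases downstream in Runx2 and 136 bases upstream in Runx3. It holds 2 copies of the RUNX core TGTGGT, read on the opposite strand as ACCACA. In all, 4 of the 32851 windows held the stretch on either strand, namely the 3 Runx windows and that of Gm16225, a gene whose window overlaps that of Runx3 on the other strand. The core alone, searched on both strands over 300 bases, was present in 16.8% of all windows. The proximal windows of Runx1 and Runx3 held no copy of it, which says only that these letters are not in these windows.

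Innervated replicate 1 held 0 peaks of Runx1, innervated replicate 2 held 0, denervated replicate 1 held 3 and denervated replicate 2 held 3. The groups did not overlap, and both denervated libraries held the same number. These are peak calls, which also need enough transcript, and read counts were not analysed here. Whether the methylation of Runx1 changed, apart from the amount of its transcript, was not tested. The term denervated only is used for a gene with a peak in each denervated list and in no innervated list. This was the case for 204 of the 5981 genes found in any list (3.41%), and for 4.24% of those found in 2 lists or more. Since Runx1 was chosen for this call, nothing is read from that background. The bases covered by its peaks numbered 1547 in denervated replicate 1 and 1498 in denervated replicate 2, a mean of 1522.5 ± 34.6 (SD, n = 2), against 0 in both innervated libraries.

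Runx2, the bone-forming member, had 0 peaks in each of the 4 libraries, and so did Runx3. No peak of any gene name, on either strand, lay within the span of Runx2 (chromosome 17, 44495987 to 44814797, 318811 bases) or Runx3 (chromosome 4, 135120645 to 135177990, 57346 bases). The absence of a peak is not a measure of methylation, because a peak call also needs enough transcript, and read counts were not analysed here. As background, 26.4% of 21900 protein-coding RefSeq genes had a peak in at least 1 list, so absence from all lists was the commoner state. The nearest peaks to these spans belonged to Clic5, 219848 bases from Runx2 and called in the innervated lists alone, and to Clic4, 38903 bases from Runx3. Within the span of Runx1 (chromosome 16, 92601466 to 92826074, 224609 bases, minus strand), all 6 peaks carried the name Runx1 and none carried another name.

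**Figure D1:**
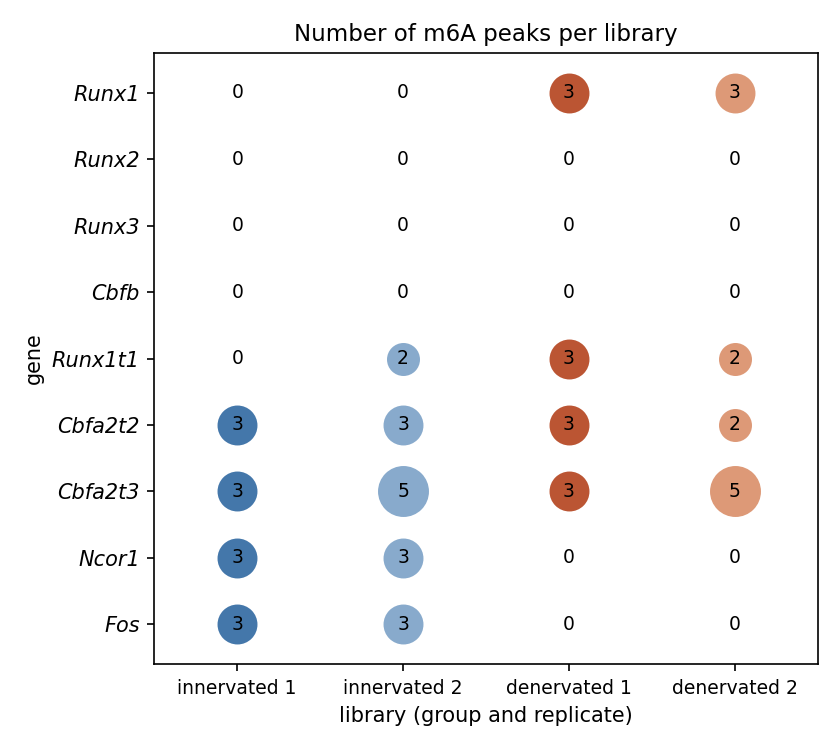
Number of m6A peaks in each of the 4 libraries (columns, group and replicate) for the Runx genes, the subunit gene Cbfb, the corepressor genes of the Runx1t1 family, and the partner genes Ncor1 and Fos (rows); the digits give the number and the circle area follows it. Runx1 has 3 peaks in both denervated libraries and 0 in both innervated ones, Ncor1 and Fos the reverse, and Runx2, Runx3 and Cbfb have 0 in every library.

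The 6 peaks of Runx1 formed 3 regions, each held by both denervated libraries. Peaks were joined into a region where they shared at least 1 base of block sequence on the same strand. All 3 were on the minus strand, the strand of the gene. Across all genes, 3.67% of 13116 regions were denervated only (481 regions).

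The first region lay at the proximal start itself. Its peak was split into 2 blocks. In denervated replicate 1 the larger block ran from 92697088 to 92697329 (242 bases) and in denervated replicate 2 from 92697187 to 92697329 (143 bases). Its 5′ edge was thus, in both libraries and to the base, the annotated proximal start. The second block had 8 bases in both libraries, from 92825589 to 92825596, and lay 478 to 485 bases downstream of the distal start. Between the blocks were 128259 bases, which are not part of the peak. Of spliced peaks, those with more than 1 block, 13 of 1136 (1.14%) in denervated replicate 1 and 19 of 1407 (1.35%) in denervated replicate 2 had an inner block that began exactly at an annotated start of their gene. A smallest block of at most 8 bases was commoner, at 13.9% and 11.9% of spliced peaks. Whether transcripts joined these blocks was not tested, because the lists hold no reads across junctions.

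In the 50 transcribed bases that follow the proximal start, all of which both peaks cover, the m6A core GGAC occurred 1 time on the transcript strand. It is given in capitals within the 30 bases chr16:92697283-92697312, minus strand, as the part of the Runx1 peaks whose sequence was at hand.
Runx1, within the first region: gcgggcgcgggcaGGACgggcgccccgcgg
The core began at base 31, counted from 1 at the start, and was followed by G; the longer GGACT occurred 0 times. Of all annotated starts, 18.9% held GGAC in their first 50 bases and 5.76% held GGACT. A match of this kind is a description of the sequence and not a mapped methylated base.

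The second region lay further downstream on the same side of the gene. It ran from 92695891 to 92696838 in denervated replicate 1 (948 bases) and from 92695792 to 92696838 in denervated replicate 2 (1047 bases). Its 5′ edge was the same in both libraries, 491 bases after the proximal start, and its 3′ edge lay 1438 and 1537 bases after it. These were long peaks. The median peak of both lists had 250 bases, and only 299 of 9804 peaks in denervated replicate 1 and 338 of 9496 in denervated replicate 2 were at least as long. The gap between the first and second regions was 249 bases in denervated replicate 1 and 348 in denervated replicate 2.

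The third region lay near the 3′ end of the gene, from 92605454 to 92605802 in denervated replicate 1 (349 bases) and from 92605454 to 92605753 in denervated replicate 2 (300 bases). In both libraries it ended 3988 bases short of where the gene span ends, with its midpoint at 98.1% and 98.2% of the way along the span. From the second region it was 90088 and 90038 bases away. Exon, coding and UTR annotation was not used here, so the place of the regions within the transcript is given only as a distance from annotated starts and ends.

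**Figure D2:**
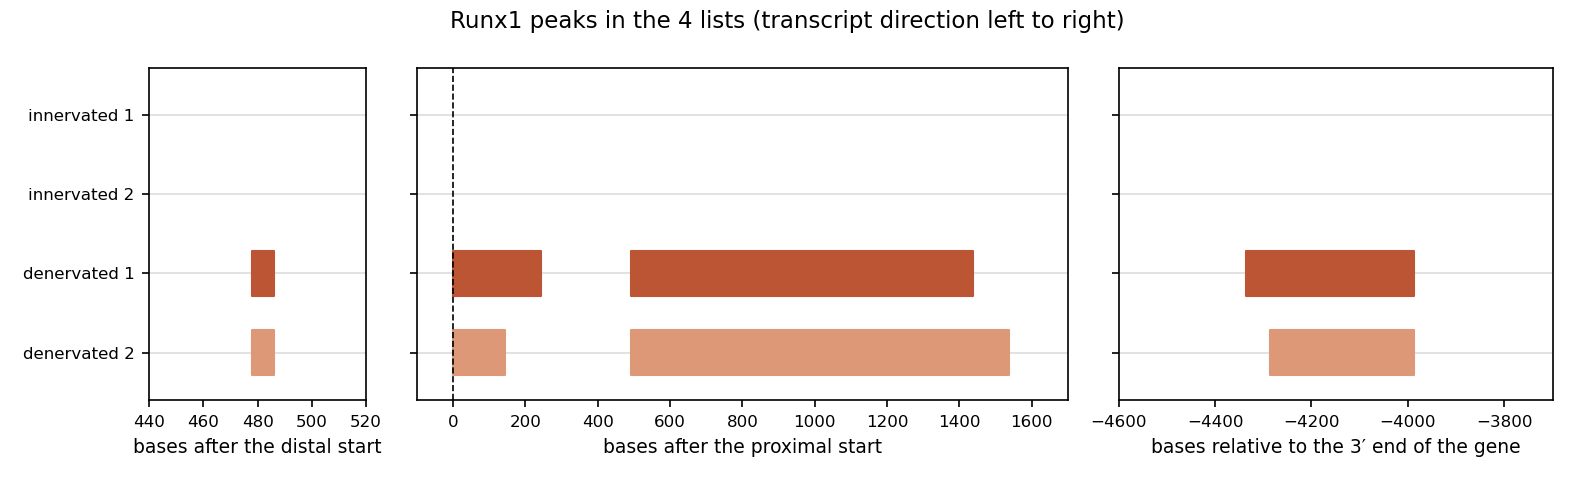
Position of the Runx1 peak blocks (bars) in the 4 libraries (rows), in bases after the distal start (left), after the proximal start (middle, dashed line at 0) and relative to the 3′ end of the gene (right); the panels have different scales. Both denervated libraries have blocks that begin at 0 and at 491 bases after the proximal start, and the innervated rows are empty.

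The denervated libraries placed these regions alike, although their edges moved. The peaks of the second region shared 90.5% of their combined bases, those of the third shared 86% and those of the first shared 60.4%. Over the 441 denervated-only regions with 1 peak per denervated library, the median was 66.7%. Where edges differed they did so by 99, 99 and 49 bases, and in each region 1 edge was identical to the base.

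In each denervated list, 2 of the 3 Runx1 peaks had a block beginning 0 to 1999 bases downstream of an annotated start. Among all peaks of genes with such a start, 16.3% in denervated replicate 1 and 18.7% in denervated replicate 2 did, and 17.0% in each innervated list. These shares describe the lists, and no test of Runx1 against them was made.

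The lists give each peak a value that their headers call score, from 0 to 0.023. What it measures is not stated in the sources used here. Its range is that of a p-value, so a small score was taken to mark a strong peak, which is uncertain. In denervated replicate 1 the peaks of the first and second regions both had a score of 8.1e-05, at percentile 56.9 of the list, where 100 is the smallest score, and the peak near the 3′ end had 0.0012, at percentile 20.1. In denervated replicate 2 all 3 peaks had 0.00019, at percentile 43.7. Runx1 thus stood in the middle of both lists, apart from its 3′ peak in denervated replicate 1.

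Equal scores within a gene were common in these lists. Among genes with exactly 3 peaks, 353 of 662 (53.3%) in denervated replicate 1 and 448 of 642 (69.8%) in denervated replicate 2 had a single score. When only the 50% of peaks with the smallest scores were kept in each list, Runx1 had 2 peaks in denervated replicate 1 and 0 in denervated replicate 2, and lost its denervated-only call. When only the 50% with the largest scores were kept, it retained its call through the 3′ region alone.

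**Figure D3:**
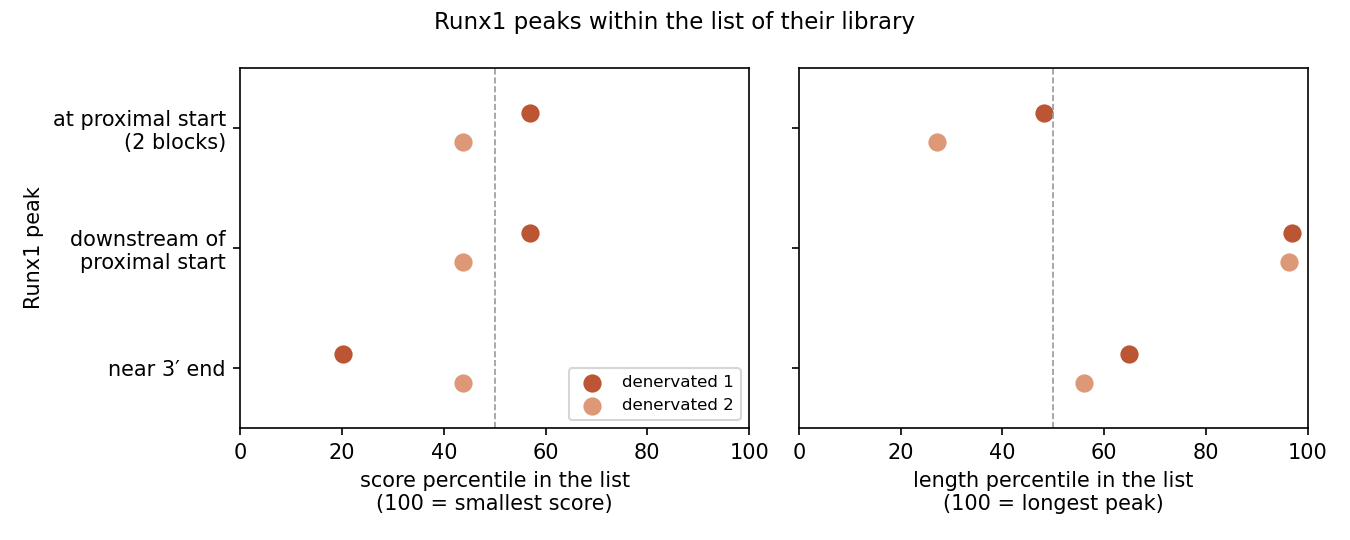
Percentile of each Runx1 peak within the list of its library by score (left, 100 is the smallest score) and by length (right, 100 is the longest peak); colours mark the denervated libraries and the dashed lines mark 50. The peaks downstream of the proximal start are at length percentiles of 97.0 and 96.4, and the score percentiles lie between 20.1 and 56.9.

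Among denervated-only genes, Runx1 was one of those with several regions. Of the 204 such genes, 129 held 1 denervated-only region, 49 held 2 and 18, Runx1 among them, held 3. At least 3 were held by 22 of the 204 genes (10.8%). By the smaller of its covered lengths in the denervated libraries, Runx1 ranked 6 of 204. Both are properties of a gene picked from this class.

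**Figure D4:**
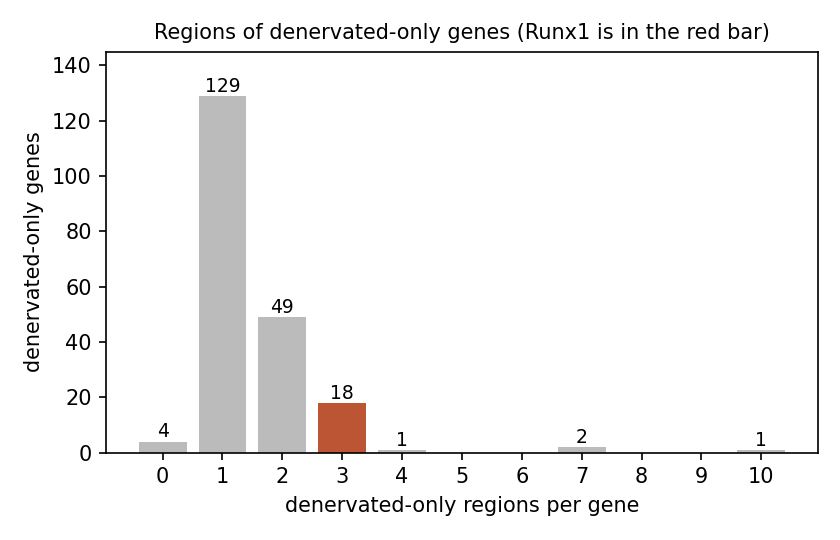
Number of denervated-only genes (vertical axis) by the number of denervated-only regions they hold (horizontal axis). Of 204 genes, 129 hold 1 region, and the red bar of 18 genes with 3 regions includes Runx1.

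The genes with the pattern most like that of Runx1 were ranked by the distance between their numbers of peaks over the 4 libraries, and then by covered bases. In all, 10 other genes had exactly 0, 0, 3 and 3 peaks. The 5 nearest were Ubqln2, a ubiquitin-binding shuttle protein, Dtx3l, a ubiquitin ligase, Chrm3, a muscarinic acetylcholine receptor, Nxpe3, and Plag1, a zinc finger transcription factor. All 5 covered fewer bases than Runx1. Ubqln2 covered 846 and 748 bases in denervated replicates 1 and 2, Dtx3l 898 and 650, and Chrm3 646 and 745. Nxpe3 covered 651 and 702, and Plag1 452 and 901. With only the smaller 50% of scores kept, Ubqln2, Dtx3l, Chrm3 and Plag1 lost their denervated-only calls, and with only the larger 50%, Ubqln2, Dtx3l, Chrm3 and Nxpe3 did. Likeness here rests on 4 libraries and on whole numbers of peaks.

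RUNX proteins act with partners, and 63 partner genes in 5 lists were set beside the family. Of these, 32 were called in all 4 libraries (50.8%), 2 were innervated only, 0 were denervated only, 8 had another pattern and 21 had no peak. Among all protein-coding RefSeq genes, 13.0% were called in all 4 libraries, 0.877% were denervated only and 0.808% were innervated only. A peak in at least 1 list was held by 66.7% of the partner genes and by 26.4% of all protein-coding genes. Neither the length nor the level of the transcripts was accounted for.

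Of the core partners, Cbfb, which encodes the CBFβ subunit, had no peak in any list. The corepressor genes Cbfa2t2 and Cbfa2t3 were called in all 4 libraries, with 2 to 3 and 3 to 5 peaks per library. Their relative Runx1t1, known from its fusion with Runx1 in leukaemia, had 0 peaks in innervated replicate 1 and 2 in innervated replicate 2, against 3 in denervated replicate 1 and 2 in denervated replicate 2. The denervated libraries and innervated replicate 2 were thus alike for Runx1t1, and innervated replicate 1 stood apart.

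Of 13 corepressors, 4 had a peak in any list (30.8%), a share near the 26.4% of all protein-coding genes, and the Groucho-family genes Tle1 to Tle5 had none. Ncor1, a nuclear receptor corepressor, was innervated only, with 3 peaks in each innervated library and 0 in each denervated one. Its regions lay on chromosome 11, minus strand, from 62317575 to 62318025, from 62373116 to 62373366 and from 62383206 to 62384797. Hdac4, a class IIa deacetylase, was called in all 4 libraries.

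Coactivators and modifiers were called in all 4 libraries for 8 of 11 genes, among them the acetyltransferases Ep300, Crebbp and Kat6a. DNA-binding partners were for 18 of 25, among them the ETS factors Ets1, Ets2 and Elf1. Fos, the immediate-early AP-1 subunit, was innervated only. It had 3 peaks in each innervated library and 0 in each denervated one, on chromosome 12, plus strand, from 85475104 to 85475825, from 85476024 to 85476273 and from 85476522 to 85476672. Its AP-1 partners Jun, Junb and Jund were called in all 4 libraries. Of the turnover genes, 2 of 10 were called in all 4 libraries, the cell cycle ligase subunits Fbxw7 and Fzr1. With only the smaller 50% of scores kept, both Ncor1 and Fos were without peaks and lost their calls.

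Runx1 was compared with 24 other genes known from the denervation response. That list was drawn up with calls of several of its members known, so its direction is no independent evidence. Of the 24, 6 were denervated only (of all protein-coding genes, 0.877%), 1 was innervated only, 4 were called in all 4 libraries and 13 had no peak. Runx1 held as many denervated-only regions (3) as Kcnn3, a calcium-activated potassium channel, and more than the other members of the list. Ankrd1, a stress-induced ankyrin-repeat protein, held 2, and Chrnd, the acetylcholine receptor delta subunit, Myod1, the myogenic factor, and Nrcam, an adhesion molecule, held 1 each. Gadd45a, a stress-response gene, was the innervated-only member. Chrnd, Ankrd1, Myod1 and Gadd45a lost these calls with only the smaller 50% of scores kept, as Runx1 did, and Nrcam and Gadd45a lost them with only the larger 50%. Other genes that the nerve is known to hold down, such as the receptor subunit Chrna1 and the myogenic factor Myog, had no peak in any list.

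Runx genes are also transcribed in cells other than muscle fibres. In bulk muscle, fewer cells of a type and less RNA per cell cannot be told apart. Of 12 blood and immune markers, Spi1 and C1qa were called in all 4 libraries and 10, including Ptprc, Itgam and Csf1r, had no peak. Their summed peaks were 3 and 3 in the innervated libraries and 4 and 2 in the denervated ones. Of 7 cartilage and bone markers, Sox9 was denervated only, with 2 peaks in each denervated library, and the other 6, including Sp7 and Bglap, had none. Of 5 Schwann cell markers, Ngfr was denervated only, Sox10 had a peak in innervated replicate 2 alone, and S100b had none. Of 5 satellite cell markers, Cdh15 had peaks in 3 libraries and Pax7 in innervated replicate 2 alone. Summed peaks over the 5 fibroblast markers were 3 and 1 in the innervated and 3 and 2 in the denervated libraries. Over the 4 endothelial markers they were 3 and 3 against 6 and 6, but different genes made up the 2 denervated sums. Cdh5 had 2 and 2 against 3 and 3 peaks, and Kdr 1 and 1 against 1 and 3. Pecam1 had 2 in denervated replicate 1 alone, and Tek had none. Of these 4 genes, 0 were denervated only (of all protein-coding genes, 0.877%). The part of these cells in the Runx1 result was not tested. The muscle fibre markers could not serve as a check of the tissue, because 0 of 12, Ckm, Acta1 and Ttn included, had a peak in any list.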

How the data were processed

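The 4 peak lists, 1 per IP library, were deposited by the authors on mm10. Each compares an IP library with the input of the same group and number, per the file names, and replicates were not pooled. The column of values is a score, per the file headers, of unstated meaning, and it was used only to rank peaks within a list. The submitters' processing notes name STAR 2.4.2a and ChIPseeker. The peak caller is one that is not given in the sources used here, like its threshold, and the depth of each library is unknown. The members and gene lists were chosen with earlier results of these data known.

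With Python 3.11.15, gene names were matched to RefSeq symbols of GRCm38.p6 (of 5987 names, 5725 were symbols, 249 older symbols and 13 unmatched, leaving 5981 genes). Peaks of the 4 lists (9327 and 10300 innervated, 9804 and 9496 denervated) sharing at least 1 base of block sequence on the same strand were linked into regions across all genes. Region linking was tested on simulated data. Coordinates are counted from 1, as a browser shows them. With 2 libraries against 2, the smallest two-sided exact permutation p is 0.333, so no test between groups was made. Percentiles use mean ranks for equal scores. Named genes were the Runx members, group-specific members of the partner and denervation lists, up to 3 members per partner list called in all 4 libraries in list order, and the 5 genes with the nearest pattern. Genes named beyond that, such as genes without a peak, single cell type markers, Runx1t1, Jun, Junb and Jund, and neighbours of the Runx spans, were chosen after their values were seen. Some genes that the rule selected are left out here. The planned comparison of protein sequences and the motif search over whole regions were not run.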

Additional observations from a re-analysis of the deposited data

How the results depend on the processing

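Runx1 kept 3 denervated-only regions with equal list lengths and with reciprocal overlap of at least 50%. It also kept 3 with strand ignored (an alternative chosen after seeing the data) and without each library in turn. Ignoring strand or leaving out 1 library could not change this count. Neither innervated list held a Runx1 peak, and no peak of another name lay in its span. Runx1 held 0 when only the smaller 50% of scores was kept in each list, where a mean of 1 peak per denervated library was left. It held 1 when only the larger 50% was kept. Runx2 and Runx3 held 0 group-specific regions in each of these settings, which was fixed because neither had a peak in any list. Partner genes called in all 4 libraries fell from 32 to 13 with the smallest scores and to 8 with the largest, where fewer peaks were counted by construction. Innervated-only partners numbered 0 with the smallest scores, 4 with the largest, and 2 to 5 without single libraries, the 5 being without innervated replicate 1. Denervated-only partners numbered 1 with the smallest scores and 0 to 1 without single libraries (0 without denervated replicate 1). Denervated-only genes numbered 352 to 574, and innervated-only genes 374 to 547, when any of the 4 libraries was left out, which loosens the definition. Of the 15 named calls, Runx1 included, 11 were lost with the smallest scores and 7 with the largest, 0 with equal list lengths and 0 with peaks assigned by gene body (on the same strand where the gene table's starts give one). Losses by score follow in part from the removal of peaks; other causes were not tested. No paired analysis was possible because the calls come from no test. The labels also do not tie libraries of the same number to the same animals, so these are only described side by side. Within each replicate number, Runx1 had 3 more peaks in the denervated library, and 1547 and 1498 more covered bases. These differences repeat the denervated values, because neither innervated list held a Runx1 peak. The unknown depth limits every absence of a peak.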
